A study of Homo sapiens with 36 samples.

Results

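Binding of V5-tagged HIF-α inside protein-coding sequence was described at 300 genomic regions, out of 25350 regions found in the experiment. A region was a set of overlapping anti-V5 peaks with peaks from at least 2 of the 15 libraries of tagged lines, on the autosomes and on X and Y. Its centre was the median of the summits of its peaks. The 300 members have their centre in the coding sequence (CDS) of a protein-coding transcript and lie more than 1 kb from the transcription start site (TSS) of every such transcript. The other regions are 7283 at promoters, 8843 in introns, 8573 between genes and 351 in non-coding parts of exons.

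The data are Cut&Run peak lists of 786-O cells, a clear cell renal carcinoma line without functional VHL or functional HIF-1α. Cut&Run tethers a nuclease to chromatin through an antibody and sequences the fragments that it releases. There are 6 lines with 3 anti-V5 libraries each, and each was called against the IgG control that shares its line and replicate number. WT cells carry no tag and give the background of the antibody. The HIF-2α KIN line, a single clone (A31), has V5 and Halo tags on both endogenous copies of HIF-2α. The remaining 4 lines are stable WT 786-O derivatives in which a weak L30 promoter drives V5-Halo-tagged HIF-2α, HIF-1α or a chimera, so they also keep their own untagged HIF-2α. In HIF-2α/1α the N-terminal part, which binds DNA and dimerizes (DBD here), is from HIF-2α and the C-terminal intrinsically disordered region (IDR) is from HIF-1α. HIF-1α/2α is the reverse. By the study's methods the stable lines were selected with puromycin and kept in selection medium, which is not said of WT or KIN cells. No other treatment, hypoxia or time course was part of these groups. Nothing in the labels says that replicates came from separate cultures, so p-values measure only the spread between these libraries.

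HIF-α proteins are the subunits through which hypoxia-inducible factors sense oxygen. They are destroyed through VHL in normal oxygen, pair with HIF-1β when they persist, and recognize a short hypoxia response element (HRE) whose core is ACGTG or GCGTG. Most known targets are read through promoters and distal enhancers. An exon must keep its reading frame, so a binding motif inside it serves as protein code at the same time.

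The DNA at members called in all 15 tagged libraries is shown first, because it carries the motif on which the later comparisons turn. The genomic plus strand of hg38 is printed 5′ to 3′, from 150 bases below the centre to 50 bases above it. Each HRE core is in capitals, written CACGT or CACGC where it lies on the minus strand. These are the first members with a core within 50 bp of the centre, in order of the number of tagged libraries and then of mean peak strength. RHPN1 also belongs to them and is not printed.
KCNMA1 (chr10:77001324-77001524): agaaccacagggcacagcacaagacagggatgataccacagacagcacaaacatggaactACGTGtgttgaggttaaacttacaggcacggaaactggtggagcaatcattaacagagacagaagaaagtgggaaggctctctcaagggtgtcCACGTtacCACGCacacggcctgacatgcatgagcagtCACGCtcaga
SLC45A1 (chr1:8343616-8343816): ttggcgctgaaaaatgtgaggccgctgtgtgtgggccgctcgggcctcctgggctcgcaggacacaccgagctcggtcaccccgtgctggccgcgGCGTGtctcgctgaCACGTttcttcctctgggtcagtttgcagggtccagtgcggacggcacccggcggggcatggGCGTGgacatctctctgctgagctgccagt
PRSS50 (chr3:46714151-46714351): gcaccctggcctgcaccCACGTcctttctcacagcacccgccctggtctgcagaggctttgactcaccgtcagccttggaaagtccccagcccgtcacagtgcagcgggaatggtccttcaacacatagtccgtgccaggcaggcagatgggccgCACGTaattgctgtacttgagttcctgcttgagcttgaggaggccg
PLA2G4D (chr15:42085378-42085578): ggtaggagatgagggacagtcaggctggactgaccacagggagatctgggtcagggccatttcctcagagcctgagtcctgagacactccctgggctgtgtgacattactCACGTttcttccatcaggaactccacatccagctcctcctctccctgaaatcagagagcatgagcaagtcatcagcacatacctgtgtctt
KLHL31 (chr6:53651867-53652067): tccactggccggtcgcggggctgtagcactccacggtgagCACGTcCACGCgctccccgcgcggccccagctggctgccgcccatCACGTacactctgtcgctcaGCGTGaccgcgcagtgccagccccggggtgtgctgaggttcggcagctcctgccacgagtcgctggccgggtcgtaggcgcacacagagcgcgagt
TCEA3 (chr1:23393826-23394026): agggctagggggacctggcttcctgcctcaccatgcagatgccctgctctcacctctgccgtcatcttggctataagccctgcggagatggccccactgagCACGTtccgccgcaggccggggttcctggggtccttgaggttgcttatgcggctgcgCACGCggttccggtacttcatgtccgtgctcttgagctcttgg

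KCNMA1 and KLHL31 hold 4 cores each in this window, SLC45A1 holds 3, PRSS50 and TCEA3 hold 2 each and PLA2G4D holds 1. ZP1 and SUMF1, which have an AP-1 motif (TGAGTCA or TGACTCA, the site of FOS and JUN factors) and no core in this window, are shown for contrast with AP-1 in capitals. PRSS50 has an AP-1 motif beside its cores, left in lower case above. SVIL, the highest-ranking member, has neither motif and is not printed.
ZP1 (chr11:60873279-60873479): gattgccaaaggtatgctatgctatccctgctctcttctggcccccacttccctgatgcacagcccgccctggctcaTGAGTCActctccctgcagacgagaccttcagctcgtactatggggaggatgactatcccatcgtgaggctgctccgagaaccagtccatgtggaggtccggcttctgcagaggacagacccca
SUMF1 (chr3:4417010-4417210): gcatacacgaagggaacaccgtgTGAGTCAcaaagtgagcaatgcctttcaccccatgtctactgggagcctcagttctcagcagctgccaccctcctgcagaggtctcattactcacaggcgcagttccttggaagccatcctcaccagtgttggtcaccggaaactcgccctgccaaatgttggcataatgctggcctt

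Tagged lists held between 3984 and 20808 peaks and WT lists held 392, 9508 and 743. The lists give no read totals. The number of fragments over a summit could be solved from the deposited fold and p in 17 of the 18 libraries, and its median at coding-exon peaks was between 12 and 24 in tagged libraries and between 6 and 10.5 in WT. Intervals for shares are not given, because PCR fragments without molecular identifiers are not independent molecules.

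One library stood apart at coding exons. HIF-1α/2α replicate 2 had 371 coding-exon peaks, where the other tagged libraries had 49 to 254. Of these, 206 overlapped no peak of any other library, against 4 to 54 in the other tagged libraries. They lay in 187 genes, and their bases fell within exons almost entirely, with a median of 97.6% against 40.1 to 73.0% for such peaks in the other tagged libraries. The strongest of them were in SERPING1 (fold 133), POLR2A (fold 98.9, 126 fragments at the summit) and RBM25 (fold 62.5, 82 fragments), and AHNAK held 4. These genes were picked after their values were seen. The cause was not tested. Peaks of 1 library do not enter the 300 members, and values without it are given below where they differ.

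**Figure D1:**
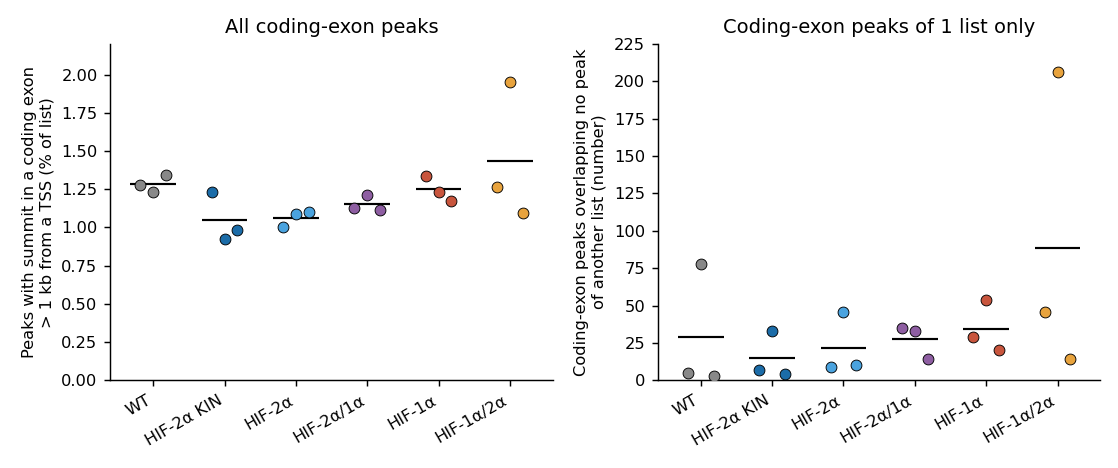
Left, percent of each list's peaks with the summit in a coding exon more than 1 kb from a TSS; right, number of those peaks that overlap no peak of another list. Points are the 3 libraries of a line (replicates 1 to 3 from left to right) and lines are means. HIF-1α/2α replicate 2, at 1.95% and 206 peaks, lies above every other library on both axes.

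The 300 members lie in 285 genes. In 15 genes there were 2 members, among them SVIL, LNX1, EPAS1 and HIF1A, and no gene had 3 or more. For 285 members the centre is also coding in the gene's canonical transcript. The regions had a median length of 656.5 bp, from 261 to 9532 bp, and coding sequence covered a median of 40.6% of a region, so most bound regions ran past the exon into its introns. Internal coding exons held 186 members (62.0%), last coding exons 81 (27.0%), first coding exons 18 (6.00%) and single-exon genes 15 (5.00%). The corresponding shares of coding bases beyond 1 kb of a TSS were 74.1%, 17.1%, 4.08% and 4.64%.

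The nearest protein-coding TSS was a median of 6996 bp away. It was within 2 kb for 54 members, within 5 kb for 126 and beyond 50 kb for 29. Annotated starts of other transcripts came closer, and 112 members had the TSS of some transcript of any type within 1 kb. The promoter of the host gene was itself a bound region for 134 members (44.7%), where the same held for 55.9% of intron regions and for 37.9% of all protein-coding genes. The members' windows had 58.0 ± 10.9% G+C (SD over 300 regions), against 49.7 ± 9.89% at intron regions and 65.0 ± 10.7% at promoters.

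HRE cores were more frequent at the members than in the DNA around them. Within 50 bp of the centre 92 of the 300 members (30.7%) had a core, and windows of the same width 1 kb to either side had one in 17.5%. The share was 19.7% at intron regions (flanks 12.9%) and 36.7% at promoters (flanks 18.0%). Among the 101-bp windows at the middle of all 168876 coding exons this far from a TSS, 15.0% held a core, or 22.7% when weighted to the members' G+C. The cores in members numbered 128, of which 74 were ACGTG and 54 GCGTG. In the host transcript 71 read in the sense direction and 57 antisense. Of the 114 copies that lie wholly in the CDS, the first base was at codon position 1 in 27, position 2 in 53 and position 3 in 34.

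The cores were not centred on the deposited summits. Within 200 bp of the centre, members had 334 copies on the side of lower genome coordinates and 168 on the side of higher ones. The side did not follow the gene: members in plus-strand genes had 167 lower and 77 higher copies, and members in minus-strand genes had 167 and 91. The same offset appeared at intron regions (6533 lower, 3050 higher) and promoters (9692 lower, 5527 higher), and its cause was not tested. A window of 101 bp set 80 bp to lower coordinates, a position chosen after this was seen, held a core in 142 members (47.3%, flanks 16.0%), in 33.1% of intron regions and in 48.8% of promoters. In windows placed like those printed above, the figure was 187 members (62.3%), against 29.8% in flanks of the same length and 24.0% at the middle of all coding exons.

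**Figure D2:**
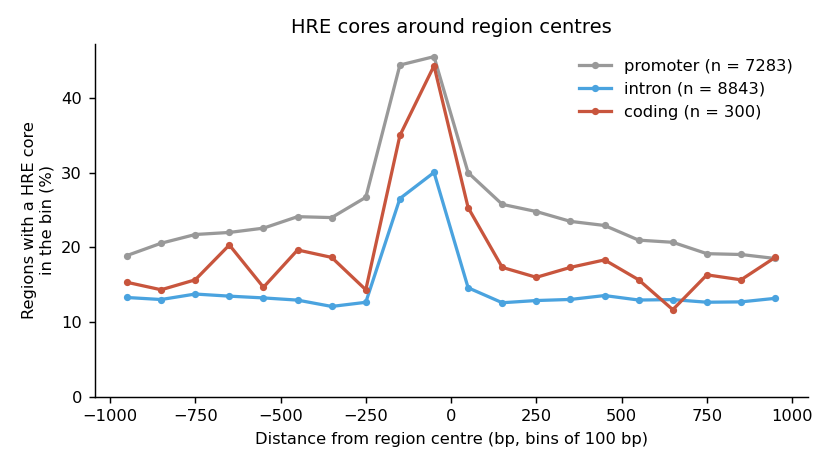
Percent of regions with at least 1 HRE core (ACGTG or GCGTG, either strand) in each 100-bp bin from 1 kb below to 1 kb above the region centre, in genome coordinates, for promoter, intron and coding-exon regions. In all 3 classes the highest bin is the one just below the centre, at 44.3% of coding-exon, 45.6% of promoter and 30.0% of intron regions.

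AP-1 motifs were rarer at the members than at intron regions, when counted in the same longer window. They were found at 61 members (20.3%, flanks 3.17%) and at 29.7% of intron regions (flanks 3.65%), but at only 5.88% of promoters (flanks 2.50%). Of all coding-exon middles 2.59% held one. Both motifs were found at 32 members and neither at 84 (28.0%).

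The next question was whether the motif is particular to tagged cells. In each list, the HRE excess was the percent of coding-exon peaks with a core within 50 bp of the summit minus the mean percent in the 2 flank windows. It was 18.3 ± 5.13 points in the tagged libraries (SD, n = 15) and 9.27 ± 12.9 in WT (n = 3), where the 3 lists had only 5, 117 and 10 coding-exon peaks. This difference of 9.04 points did not pass (exact permutation test, two-sided, p = 0.0576, adjusted over 13 tests p = 0.187). It was 2.52 points (exact p = 0.658) for peaks beyond 5 kb of a TSS. The window 80 bp lower was placed where cores lie at regions built from tagged peaks, so its difference is a description without a test. All 15 tagged libraries lay between 18.1 and 45.8 points, with a mean of 33.8 ± 7.58, and the 3 WT libraries at 0, 3.85 and -5.00 points, a difference of 34.1 points. Without HIF-1α/2α replicate 2 the difference was 35.3 points.

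Coding-exon peaks had the larger HRE excess when set against intron peaks of the same libraries. The difference at the summit was 10.4 points, with an intron mean of 7.90 ± 1.55, and coding peaks were higher in 15 of 15 tagged libraries (exact sign permutation test, p = 6.1e-05, adjusted p = 0.000397). It was 5.91 points, higher in 15 of 15, when the intron peaks were weighted to the G+C of the coding-exon peaks. With flanks at 500 bp it was 5.76 points (exact p = 0.000732). CpG content was not matched. With the lowered window it was 12.1 ± 5.72 points, the smallest value being 1.08 in HIF-1α/2α replicate 2. The WT lists, with 5, 117 and 10 coding-exon peaks, had a summit excess of 20.0, 12.8 and -5.00 points at those peaks. At their intron peaks it was -3.51, -0.0746 and 2.90 points. The difference at the summit was thus not shown to be particular to tagged libraries. With the lowered window the WT differences were 2.05, 2.32 and -3.93 points. The mean G+C within 50 bp of the summit was 57.6 ± 2.14% for coding-exon and 49.3 ± 1.14% for intron peaks, and again higher in 15 of 15 libraries (p = 6.1e-05, adjusted p = 0.000397, exact sign permutation test).

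**Figure D3:**
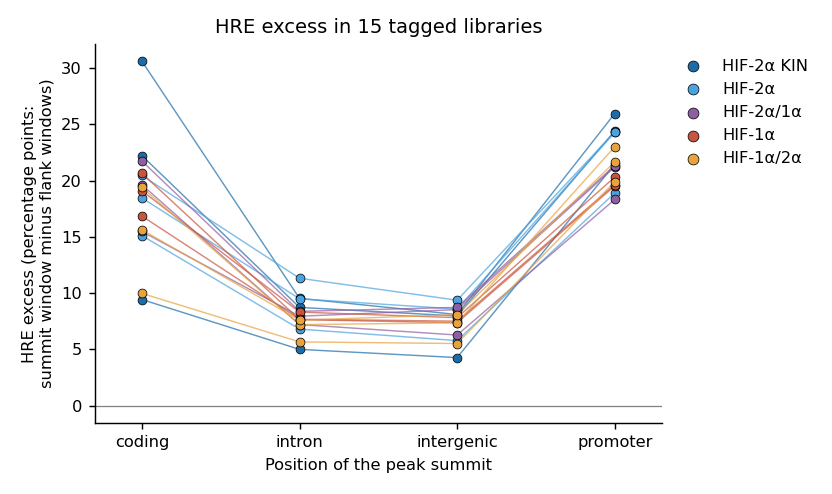
HRE excess of coding, intron, intergenic and promoter peaks in the 15 tagged libraries: percent of peaks with a core within 50 bp of the summit minus the mean percent in flank windows 1 kb to each side, in percentage points. Each line joins the values of 1 library. Every library falls from coding exon to intron, and promoter peaks lie between 18.3 and 26.0 points.

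Members differed widely in how often they were called. Of the 300, 79 were called in only 2 tagged libraries and 18 in all 15, with a median of 5, which was also the median of intron regions. The share with an HRE core in the longer window was 39.2% of the 79 members called in 2 libraries, 63.9% of the 83 called in 3 to 5, 67.1% of the 79 called in 6 to 10, 90.2% of the 41 called in 11 to 14 and 72.2% of the 18 called in 15. At intron regions the same bins gave 34.3%, 40.1%, 50.0%, 62.2% and 80.7%. WT libraries called 24 members, 21 of them in 1 WT library and 3 in 2. Calls in WT were thus found at 8.00% of the members and at 14.4% of intron regions.

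**Figure D4:**
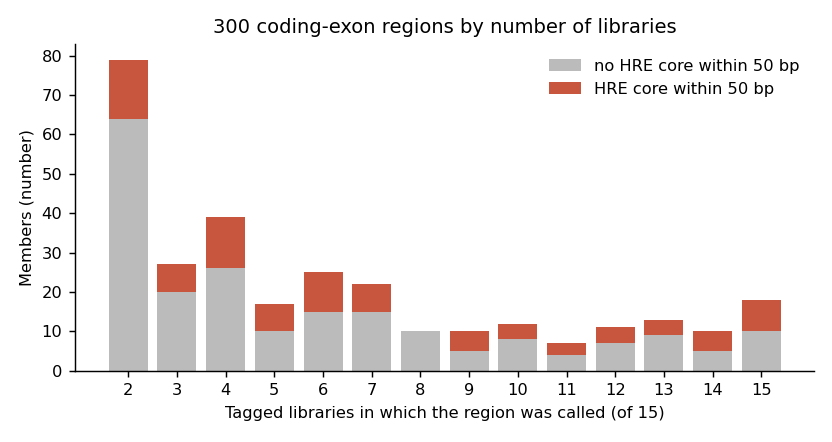
Number of coding-exon members by the number of tagged libraries that called them, with members that have an HRE core within 50 bp of the centre in the upper, darker part of each bar. The largest class is the 79 members called in 2 libraries, and 8 of the 18 members called in all 15 libraries have a core.

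The 18 members called in all tagged libraries ranked high within each list. The median of their percentile ranks by fold (100 is the strongest peak) lay between 76.6 and 96.1 over the 15 tagged libraries. They were SVIL, KCNMA1, ZP1, RHPN1, SLC45A1, ATP6V0A4, SUMF1, PRSS50, PLA2G4D, LNX1, GABRR2, KLHL31, SUSD1, FAM193B, TCEA3, RRAGA, ADAMTS16 and PRDM12. Their nearest protein-coding TSS was a median of 10061.5 bp and at least 1117 bp away, and 13 were called in no WT library. Only 2 of them had a bound region at the promoter of their own gene. An HRE core was present in the longer window of 13 and an AP-1 motif in that of 5, while SVIL, SUSD1 and FAM193B had neither.

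KCNMA1 encodes the pore of the large-conductance, calcium-activated potassium channel. Its region (chr10:77000898-77002033) is centred on codon 733 of 1236, in coding exon 19 of 28, 17589 bp from the nearest protein-coding TSS. The fold was 14.4, 39.8 and 37.4 in the 3 HIF-2α KIN libraries, 25.7, 93.9 and 14.6 with HIF-2α, 15.6, 28.1 and 50.1 with HIF-1α, 53.0, 41.3 and 30.1 with the HIF-2α/1α chimera and 93.6, 46.7 and 28.6 with HIF-1α/2α. No WT library called it, and the ranges of the 5 tagged lines overlapped. Between 55 and 169 fragments lay over its summit where this could be solved. A second ion channel gene, GABRR2, which encodes a GABA receptor subunit, had folds between 8.58 and 52.6 (median 21.7) at codon 149 in coding exon 4 of 9.

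Secreted proteins and a factor of the secretory pathway were also among the hosts. ZP1, a glycoprotein of the egg coat, had folds of 11.9, 46.6 and 11.5 in HIF-2α KIN, 35.4, 49.6 and 17.7 with HIF-2α, 52.5, 57.1 and 41.7 with HIF-1α, 61.6, 78.3 and 21.6 with the HIF-2α/1α chimera and 47.7, 51.3 and 29.7 with HIF-1α/2α. Its coding exon 8 of 12 has the AP-1 motif printed above, 70 bases below the centre, and the TSS of another transcript 304 bp away. SUMF1, which makes the enzyme that activates sulfatases, had folds between 12.5 and 51.2 (median 22.2) in coding exon 6 of 9, 50104 bp from the nearest protein-coding TSS. ADAMTS16, a secreted metalloproteinase, was also called in every tagged library, with folds between 2.85 and 24.5 (median 14.3).

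The remaining named hosts encode enzymes, signalling proteins and others. In PLA2G4D, a cytosolic phospholipase A2, the fold was 7.95, 34.1 and 7.99 in HIF-2α KIN and 22.0, 95.5 and 12.6 in HIF-2α, and in the other tagged libraries it lay between 13.1 and 74.1. The protease gene PRSS50 had folds between 8.65 and 58.9 (median 21.1) at codon 224 of 385. LNX1, a ubiquitin ligase that acts on NUMB, had folds between 8.98 and 40.0 (median 21.8), with the TSS of another transcript 256 bp away. For the kelch protein KLHL31 the values were 6.86 to 51.8 (median 21.2) and for FAM193B 6.07 to 61.0 (median 17.5). RRAGA, a Rag GTPase that relays amino acid supply to mTORC1, is a gene with 1 coding exon and had folds between 6.62 and 23.0 (median 11.7).

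**Figure D5:**
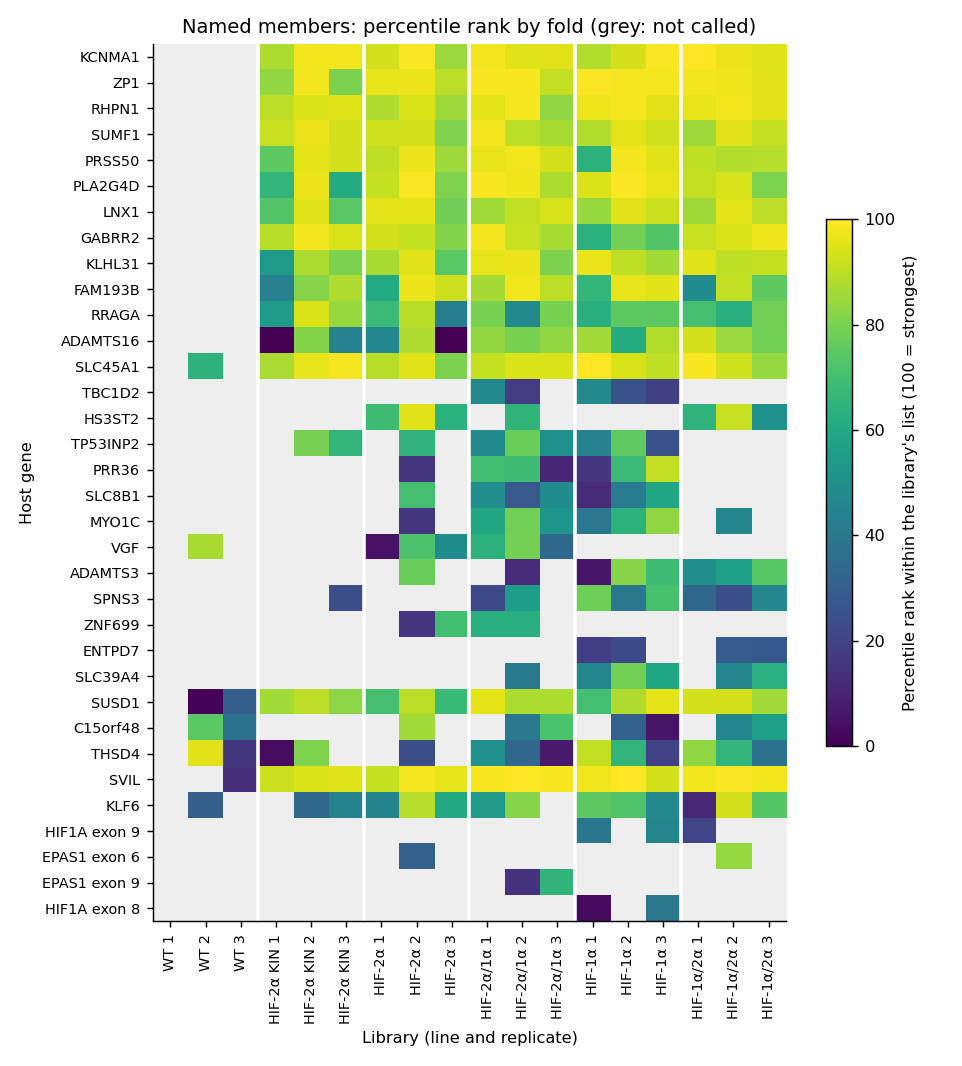
Percentile rank by fold of named members (rows, host gene) in the 18 libraries (columns, line and replicate), on a scale from 0 to 100 where 100 is the strongest peak of that list; grey marks libraries without a call. The first 13 rows and SUSD1 and SVIL are filled in all 15 tagged libraries. VGF is filled in the 6 exogenous libraries with the HIF-2α DBD and in 1 WT library, but not in HIF-2α KIN. The 4 EPAS1 and HIF1A rows are filled in 2 or 3 libraries each.

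Among the members that WT libraries called, SUSD1 and SVIL had lower folds there than in any tagged library. SVIL, the actin-binding protein supervillin, had a fold of 4.84 with 5 fragments in WT replicate 3 and between 17.9 and 149 in the tagged libraries. SUSD1 had folds of 3.32 and 5.61 in WT replicates 2 and 3, against 9.30 to 34.1. For SLC45A1, a sugar transporter, the fold was 5.66 in WT replicate 2 and 12.4 to 66.5 in tagged libraries. THSD4, a matrix protein gene, was not of this kind. Its folds of 11.8 and 4.98 in WT lay within the tagged range of 3.71 to 17.3, and so did those of C15orf48 (6.49 and 6.05 in WT, 4.18 to 17.2 in the 7 tagged libraries that called it). In C15orf48 the start of another transcript lies 12 bp from the centre.

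The share of peaks that fall in coding exons was next compared between lines. It was 1.28 ± 0.0581% in WT, 1.05 ± 0.162% in HIF-2α KIN, 1.06 ± 0.0543% with exogenous HIF-2α, 1.25 ± 0.0806% with exogenous HIF-1α, 1.15 ± 0.0526% with the HIF-2α/1α chimera and 1.44 ± 0.454% with HIF-1α/2α (SD, n = 3 each). Coding bases this far from a TSS make up 0.929% of the genome. Tagged libraries did not differ from WT by the test (1.19 ± 0.239% against 1.28%, exact permutation p = 0.429, adjusted p = 0.572). Without HIF-1α/2α replicate 2 the tagged mean was lower by 0.149 points (exact p = 0.0441, unadjusted). With peaks at a −log10 q of at least 5 the order turned, and tagged libraries were higher by 0.516 points (exact p = 0.0123, unadjusted), where the WT lists kept 0, 37 and 5 coding-exon peaks.

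The DBD and the IDR were then compared over the 12 exogenous libraries. The coding share was 1.11 ± 0.0674% where the DBD was that of HIF-2α and 1.34 ± 0.310% where it was that of HIF-1α (n = 6 each), and the exact permutation p of 0.025 became 0.108 after adjustment. The difference was -0.236 points, and leaving out HIF-1α/2α replicate 2 made it -0.107 points. By IDR the difference was 0.0512 points (HIF-2α minus HIF-1α), with an exact p of 0.95, and without that library the difference changed sign to -0.0776 points. HIF-2α and HIF-2α KIN differed by 0.0174 points (exact p = 0.9), in a design of 3 against 3 that cannot give a p below 0.1.

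Members were called slightly less often than other regions in most libraries. The percent of members called minus the percent of all other regions called was between -7.05 and 0.259 points over the 15 tagged libraries. For the 6 libraries with the HIF-2α IDR it was -3.67 ± 2.40, and for the 6 with that of HIF-1α it was -1.33 ± 1.60. The difference of -2.34 points did not pass (exact permutation p = 0.1, adjusted p = 0.26). It reached -4.36 points (exact p = 0.005, unadjusted) with peaks at a −log10 q of at least 5, and was -0.397 (exact p = 0.78) with the TSS of all transcripts and -0.670 (exact p = 0.58) beyond 5 kb of a TSS. By DBD the difference was -0.145 points (exact p = 0.915).

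The HRE excess at coding-exon peaks differed by DBD only where the window was moved or widened. At the summit it was 18.5 ± 2.69 points with the DBD of HIF-2α and 16.9 ± 3.86 with that of HIF-1α (exact permutation p = 0.44, adjusted p = 0.572). The lowered window was chosen after the data were seen. With it the excess was 36.8 ± 4.30 and 27.4 ± 5.19 points (n = 6 each). The difference of 9.37 had an exact permutation p of 0.005, the smallest this design allows and not adjusted. The 2 groups overlapped, at 31.4 to 42.0 and 18.1 to 32.8 points. Without HIF-1α/2α replicate 2 the difference was 7.53 points (exact p = 0.005). Promoter peaks differed in the same direction by 4.61 points (exact p = 0.01), so this was not particular to coding exons, and intron peaks by 3.95 (exact p = 0.12). By IDR the difference at the summit was -2.40 points (exact p = 0.225, adjusted p = 0.418) and with the lowered window -1.97 (exact p = 0.525). Without HIF-1α/2α replicate 2 these were -1.15 (exact p = 0.45) and -0.123 (exact p = 0.97).

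The rank of coding-exon peaks against intron and promoter peaks depended on how it was measured. The median percentile rank by fold was 51.6 ± 5.55 for coding-exon peaks, 49.7 ± 1.21 for intron peaks (exact sign permutation p = 0.21, adjusted p = 0.418) and 53.2 ± 2.99 for promoter peaks (p = 0.271, adjusted p = 0.44, exact). Coding-exon peaks ranked above intron peaks in 11 of 15 libraries. Ranking by −log10 p gave -0.782 points against introns (exact p = 0.537) and -6.67 against promoters (exact p = 0.000244), while lists of equal length ranked by fold gave 1.83 (exact p = 0.0025) and 3.53 points (exact p = 6.1e-05), all unadjusted.

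Few single members differed by domain at an unadjusted threshold. With the HIF-1α IDR, 4 of the 300 members (1.33%) were called more often at an unadjusted Fisher's exact p under 0.05, where the same held for 1.32% of all 25350 regions. With the HIF-2α IDR it was 1 member, against 0.0947% of all regions. With the HIF-2α DBD it was 1 member, against 0.075%, and with the HIF-1α DBD no member, against 0.489%. No region of the 25350 passed Benjamini-Hochberg adjustment over all of them by Fisher's exact test, for either domain. The smallest p this design allows is 0.00216 (Fisher's exact test), so a completely split region could not pass on its own. The adjustment therefore cannot decide whether single regions follow a domain. At the unadjusted threshold there were 359 regions by IDR and 143 by DBD, and among the members 5 and 1.

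The member with the HIF-2α IDR was HS3ST2, a sulfotransferase that modifies heparan sulfate. Its region (chr16:22914861-22916152) lies 101136 bp from a protein-coding TSS. Among exogenous libraries it was called in 6 of 6 that have the HIF-2α IDR and in 1 of 6 that have the other (exact Fisher p = 0.0152, adjusted p = 1). The fold was 9.79, 35.8 and 8.76 with HIF-2α, 9.14, 24.9 and 7.68 with HIF-1α/2α and 10.9 in replicate 2 of the HIF-2α/1α chimera. It was not called in HIF-1α or WT, nor in HIF-2α KIN, which has the HIF-2α IDR on the endogenous protein.

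The 4 members with the HIF-1α IDR had the same exact Fisher p of 0.0152 and adjusted p of 1. TBC1D2, a Rab GTPase-activating protein, was called in 5 of 6 libraries that have the HIF-1α IDR and in none of the other 6, at folds of 4.91 to 7.06. The autophagy regulator TP53INP2 (6 of 6 against 1) was also called in HIF-2α KIN replicates 2 and 3, which have the HIF-2α IDR, at folds of 10.5 and 8.58. PRR36 and SLC8B1, a mitochondrial sodium/calcium exchanger, were each called in 6 against 1, at folds between 4.53 and 20.1. MYO1C, an unconventional myosin, came next (6 against 2, exact p = 0.0606). None of these 5 was called in WT. List length differed between the IDR groups. HIF-2α replicates 1 and 3 had 6590 and 5906 peaks, and the lists with the HIF-1α IDR had 12371 to 20808. TP53INP2, PRR36 and SLC8B1 had their 1 call with the HIF-2α IDR in HIF-2α replicate 2, a list of 20651 peaks. The HIF-1α/2α lists, of 13060, 18999 and 11679 peaks, called none of the 4 members. Fewer members passed by IDR with lists of equal length, as given below.

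VGF was the only member split completely by a domain among the exogenous libraries. This gene of a secreted neuropeptide precursor has 1 coding exon, and the region (chr7:101162998-101163892) lies within it, 1739 bp from the TSS. The fold was 4.12, 10.8 and 7.13 with HIF-2α, 9.20, 15.8 and 6.27 with the HIF-2α/1α chimera and 8.40 in WT replicate 2, with 9, 24 and 12 fragments at the summit in HIF-2α and 13 in that WT library. It was called in 6 of 6 exogenous libraries that have the HIF-2α DBD and in none of the 6 that have the other (exact Fisher p = 0.00216, the smallest possible, adjusted p = 1). The HIF-2α KIN libraries, which have this DBD on the endogenous protein, did not call it, and the fold in untagged cells lay within the tagged range. By percentile rank within its list the WT replicate 2 peak, at 86.9, lay above the tagged range of 4.98 to 79.0. The next members by DBD were ADAMTS3, SPNS3, ZNF699 and ENTPD7 at an exact p of 0.0606 and SLC39A4 at 0.0801.

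EPAS1 and HIF1A, the genes of HIF-2α and HIF-1α, were 4 of the 5 members in a fixed list of 60 hypoxia targets. The exogenous lines carry added copies of these coding sequences, so where an added copy holds the exon, its fragments and those of the chromosomal exon cannot be told apart. The member at HIF1A coding exon 8 was called in HIF-1α replicates 1 and 3 (folds 3.83 and 6.91). Of these 2 peaks only that of replicate 1 had its summit in the coding exon. Exon 9 was called in the same libraries (folds 6.38 and 7.44) and in HIF-1α/2α replicate 1 (fold 5.28, with 7 fragments). In HIF-1α the fragments were many but the control was high too. At exon 9 the summits held 31 and 35 fragments where the caller expected 4.01 and 3.84 from the control, while the median expectation at coding-exon peaks of those libraries was 1.34 and 0.675. EPAS1 exon 6 was called in HIF-2α replicate 2 (fold 5.56) and in HIF-1α/2α replicate 2 (fold 16.0), although that chimera has the HIF-2α sequence only after its N-terminal part. Exon 9 was called in HIF-2α/1α replicates 2 and 3 (folds 4.66 and 10.0), with summits at codons 386 and 367. By the study's methods these lie past the point where that chimera changes to HIF-1α, and so does the summit at HIF1A codon 383 in HIF-1α/2α past its change to HIF-2α. Exon 9 begins before that point, at codon 345 in EPAS1 and 343 in HIF1A, so each chimera holds part of it. Outside the members, EPAS1 exon 8 had a peak in HIF-2α/1α replicate 2 (fold 9.83) and exon 12 in HIF-1α/2α replicate 2 (fold 9.11). Both lie in sequence that those chimeras hold. The source of the fragments was not tested. No WT or HIF-2α KIN library called any of the 4 members, none of them has an HRE core within 50 bp of the centre although both EPAS1 members have one in the longer window, and ARNT, the HIF-1β gene, had no coding-exon peak.

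The remaining hypoxia target was KLF6, a zinc-finger transcription factor, called in 13 tagged libraries and in WT replicate 2. Its folds were 4.59 to 28.9 in tagged libraries (median 8.25) and 4.25 in WT, and the start of another transcript lies 322 bp away. By percentile rank within its list the WT peak, at 30.3, lay within the tagged range of 11.2 to 93.4. No other gene of the hypoxia list, and none of 22 renal carcinoma genes such as VHL, PBRM1 and SETD2, had a member. The hypoxia list has 0.251% of all coding bases beyond 1 kb of a TSS, a share that would be 0.754 of 300 members. Solute carriers had 12 members (4.00%, with 1.92% of these coding bases), C2H2 zinc-finger genes 7 (2.33%, with 3.73%), collagens 2 (0.667%, with 0.632%), histones 1 and keratins 1. Protocadherin, mucin and HOX genes had none, with 0.416%, 0.542% and 0.0499% of the coding bases. These counts are descriptions, and no list was tested.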

How the data were processed

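The deposited lists are narrowPeak files, 1 per anti-V5 library. The authors aligned reads to hg38 with Bowtie2 2.3.4.1, kept fragments of 10 to 700 bp, processed alignments with SAMtools 1.8, and called peaks with MACS2 (q of 0.01, maximum gap of 400 bp, duplicates kept) for each library against its own IgG library. Blacklisted regions were removed with bedtools 2.28.0. Replicates were not pooled. The deposited values are the fold enrichment (a ratio), the −log10 of p and of q, and the summit offset as deposited, another coordinate. The 18 IgG libraries were used only as these controls. A fixed q gives longer lists from deeper libraries, and a region missing from a list is not shown to be unbound.

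Positions were classed with GENCODE release 44 on hg38. Peaks overlapping by 1 bp or more were merged. Fragments at a summit are the whole number k that gives both deposited values, with fold as k plus 1 over the control expectation plus 1 and p as the upper Poisson tail (relative tolerance 2e-05). Permutation tests were exact and two-sided. IDR labels were exchanged within a DBD and DBD labels within an IDR, over 400 relabellings. Benjamini-Hochberg adjustment covered 13 tests. Fisher's exact test was run on all regions. Functions were tested on simulated data.

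Genes were named by rule: the first 12 members by number of tagged libraries without a WT call, the first 6 with an HRE, up to 6 by IDR and 6 by DBD, 4 by WT calls, and hypoxia or renal carcinoma genes. ATP6V0A4, TCEA3 and PRDM12 were named after their values were seen. The members and lists were chosen with earlier results of these data known. Python 3.11.15, NumPy 2.4.6, SciPy 1.17.1, pandas 2.3.3 and pysam were used, with plots by matplotlib 3.10.9.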

Additional observations from a re-analysis of the deposited data

How the results depend on the processing

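Results were recomputed under the alternatives that apply to them, and 245 of 309 values kept their direction and their side of an unadjusted p of 0.05 or, for counts, stayed within 1.5 times. With peaks at a −log10 q of at least 5, the coding share of tagged minus WT was 0.516 points (exact p = 0.0123), its DBD difference -0.206 (exact p = 0.095), HIF-2α minus HIF-2α KIN -0.0501, the relative call share -4.36 by IDR (exact p = 0.005) and 1.82 by DBD, the IDR difference in HRE excess 0.466, and the fold percentile of coding-exon peaks 1.98 above introns (exact p = 0.0222) and 3.11 above promoters (exact p = 0.00598). WT replicate 1 kept no coding-exon peak there, so the HRE excess of tagged minus WT had no value. With lists of equal length the DBD difference in coding share was -0.134 (exact p = 0.835), HIF-2α minus HIF-2α KIN -0.0167, and the relative call share by DBD 1.11. The fold percentile was 1.83 above introns (exact p = 0.0025) and 3.53 above promoters (exact p = 6.1e-05), and 1 single member passed by IDR in place of 5. The HRE excess of tagged minus WT was then 20.8 (exact p = 0.00368), but only the tagged lists were equal. Lists were cut to 3984 peaks, the length of the shortest tagged list. WT replicates 1 and 3 hold 392 and 743 peaks and stayed shorter. At over 5 kb from a TSS the coding share gave -0.231 for tagged minus WT (exact p = 0.0429) and -0.144 by DBD (exact p = 0.08), and the HRE excess of tagged minus WT 2.52 (exact p = 0.658). With the TSS of all transcripts HIF-2α minus HIF-2α KIN was -0.0176. Among regions from at least 3 lists the relative call share was -4.35 by IDR (exact p = 0.02) and 0.794 by DBD, and in canonical transcripts it was 0.184 by DBD. Flanks at 500 bp gave an HRE excess of 11.4 for tagged minus WT (exact p = 0.0049) and 5.76 for coding minus intron, ACGTG alone 1.01 by IDR, and a window of 100 bp to each side 7.83 by DBD (exact p = 0.005). Ranks by −log10 p gave -0.782 against introns and -6.67 against promoters (exact p = 0.000244). Over the 5 line means the coding minus intron differences in HRE excess (10.4) and in G+C (8.31) had an exact p of 0.0625, the smallest that 5 lines allow. The causes were not tested.

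Chosen after seeing the data, a window 80 bp lower gave an HRE excess of 34.1 for tagged minus WT, a window placed on tagged peaks and therefore given without a test, and 9.37 by DBD (exact p = 0.005). Counting only coding-exon peaks shared with another list gave a coding share of -0.120 by IDR (exact p = 0.02) and -0.0472 by DBD (exact p = 0.21).

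Replicate numbers did not enter the main tests. The correlation of deviations had a median of 0.0177 (-0.0141 to 0.0648) over 30 same-numbered pairs. Over 60 pairs with different numbers the median was -0.00794 (-0.0485 to 0.0445), so same-numbered libraries were slightly more alike, with overlapping ranges. Replicate 2 had the longest list in every line, so list length went with replicate number. With the replicate block the DBD difference in coding share stayed at -0.236 with an exact p of 0.0625, and no other call changed.

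Leaving out 1 library at a time, the coding share ran from -0.149 (without HIF-1α/2α replicate 2) to -0.0637 for tagged minus WT, -0.0776 (without HIF-1α/2α replicate 2) to 0.137 by IDR, -0.321 to -0.107 by DBD and -0.0435 to 0.109 for HIF-2α minus HIF-2α KIN. The DBD call, at an unadjusted p of 0.025, was lost without any 1 of the 3 HIF-2α libraries or of HIF-2α/1α replicates 1 and 3. The relative call share ran from -3.01 to -1.51 by IDR, passing without HIF-1α/2α replicate 3 (exact p = 0.045), and from -0.770 to 0.680 by DBD. The HRE excess of tagged minus WT ran from 1.90 (without WT replicate 3) to 14.4 (without WT replicate 1, exact p = 0.0221), and it also passed without HIF-2α KIN replicate 2 or HIF-1α/2α replicate 2. By IDR it ran from -3.50 to -1.15 (without HIF-1α/2α replicate 2). Single members passing at the unadjusted threshold numbered 6 to 12 by IDR and 1 to 4 by DBD. WT lists of 5 to 117 coding-exon peaks limit every comparison with WT.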
